A study of Sus scrofa with 6 samples.

Results

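The 10 genes described here coat lipid droplets or release fatty acids from them: the perilipins PLIN1, PLIN2, PLIN3, PLIN4 and PLIN5, the droplet-fusion protein CIDEC, the lipases PNPLA2, LIPE and MGLL, and the lipase cofactor ABHD5. They were found by symbol among 12671 loci of a table of TPM (transcript abundance per gene, on a common total), and all 10 were present. The group was chosen by function at a time when the differences of these libraries between the phases were already known, among them those of PLIN2 and CIDEC. The differences of its members between the phases are therefore given as a description, with errors and without a p-value. A call over all loci, where stated, is not read as a test of the group.

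RNA was sequenced from longissimus dorsi, the long back muscle, of female QingYu pigs, a breed of southwestern China kept for both meat and fat. The animals were slaughtered either at the inflection point of the growth curve (IP), when growth is fastest, or in the plateau phase (PP), when it is slowest, with 3 libraries from each phase given as biological replicates. The growth protocol puts the IP at 178 days and the PP at 395 days of age, while the age field of the labels reads 178 days for all libraries. The paper gives the same room and diet for all pigs, and adds that diets were formulated to meet recommendations for different growth phases. The pigs measured for growth came from batches that differed in birth date, and the batch of each library is not given. No treatment or genetic change is described. Any pooling of animals is not given in the sources used here.

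Because TPM take the length of a transcript into account, levels of different genes can be compared, but TPM do not tell how many reads a value rests on. The most abundant locus, an assembled one, took 21.8% to 35.8% of each library, and the median locus had 2.98 to 6.12 TPM. IP replicate 3 was closest to PP replicate 1 (Pearson r = 0.977 over the tested loci), and PP replicate 2 correlated equally with its own phase and with the IP (mean r = 0.950 for each), so values without these libraries are given where they matter. As a check of the tissue, 9 skeletal muscle markers, ACTA1 and CKM among them, summed to 35709 to 57699 TPM in each library, and MB, MYLPF and TTN were not analysed here.

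A lipid droplet is a store of triglyceride under a single layer of phospholipid, and perilipins bind to that layer. PLIN1 guards the droplet of adipocytes and, once phosphorylated, lets lipolysis proceed. PLIN2 coats droplets in most tissues and is the common droplet protein of muscle fibres, while PLIN5 is typical of oxidative tissue and lies where droplets meet mitochondria. Lipolysis runs in order: PNPLA2 (adipose triglyceride lipase) with its activator ABHD5 takes the first fatty acid, LIPE (hormone-sensitive lipase) the next, and MGLL (monoglyceride lipase) the last. In skeletal muscle these genes act in the fibres and in the adipocytes between them, and a bulk library cannot tell fewer cells of a type from less RNA per cell.

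The lipases can be told from the cofactor by the sequence of their active site. Serine hydrolases carry a glycine, any residue, the catalytic serine, any residue and a glycine, and the coding stretches around this motif were read from RefSeq transcripts of Sscrofa11.1, each 33 bases, 5′ to 3′, with the codon of the central residue in capitals.
PNPLA2: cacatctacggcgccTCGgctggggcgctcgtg
LIPE: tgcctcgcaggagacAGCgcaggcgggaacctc
MGLL: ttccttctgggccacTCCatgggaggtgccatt
ABHD5: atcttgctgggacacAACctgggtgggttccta
The central codon encodes serine at residue 47 of 486 in PNPLA2, 424 of 764 in LIPE and 122 of 303 in MGLL. In ABHD5 it encodes asparagine, at residue 152 of 348, and no copy of the serine motif was found in that protein. MGLL held another match to the motif, at residue 83. On the plus strand the stretches lie at chr2:513360-513392 for PNPLA2, chr6:49555724-49555756 for LIPE and chr13:27039484-27039516 for ABHD5, and that of MGLL is spliced over an intron between 72546693 and 72547797 of chromosome 13. ABHD5 is thus a member of the hydrolase fold that lacks the catalytic serine, and it is placed here with the cofactors.

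The genes lie on 5 chromosomes of Sscrofa11.1. PLIN2 (ENSSSCG00000035863) is on chromosome 1 from 203683867 to 203709277, PLIN1 on chromosome 7 from 55237517 to 55250797 and LIPE on chromosome 6 from 49543671 to 49560126. PLIN5 (chromosome 2, 74304613 to 74314314) and PLIN4 (74318624 to 74331920) are neighbours on the same strand with 4309 bases and no annotated gene between them, and PLIN3 (73970149 to 73995314) ends 309 kb before PLIN5. PNPLA2 is near the start of the same chromosome, from 513065 to 517962. ABHD5 (27006331 to 27053760), CIDEC (ENSSSCG00000011557, 66141836 to 66149801) and MGLL (72480395 to 72568964) are on chromosome 13. PLIN1, PLIN4, CIDEC, LIPE and MGLL each overlap 1 gene on the other strand in RefSeq, and since the sources do not state that counting used strand, reads of the partner cannot be told apart in those 5. PLIN2, PLIN3, PLIN5, PNPLA2 and ABHD5 overlap no annotated gene.

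In the muscle of these pigs PLIN2 and PLIN4 were the most abundant members in each library and exchanged places between the phases. In IP replicate 2 MGLL, at 23.4 TPM, came close to PLIN2, at 24.6 TPM. PLIN4 was the highest member in each IP library and PLIN2 in each PP library. PLIN2 stood 4.03 times higher at the PP and CIDEC 3.07 times higher at the IP, and these were the only members whose libraries did not overlap between the phases. The levels of the other 8 genes overlapped.

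**Figure D1:**
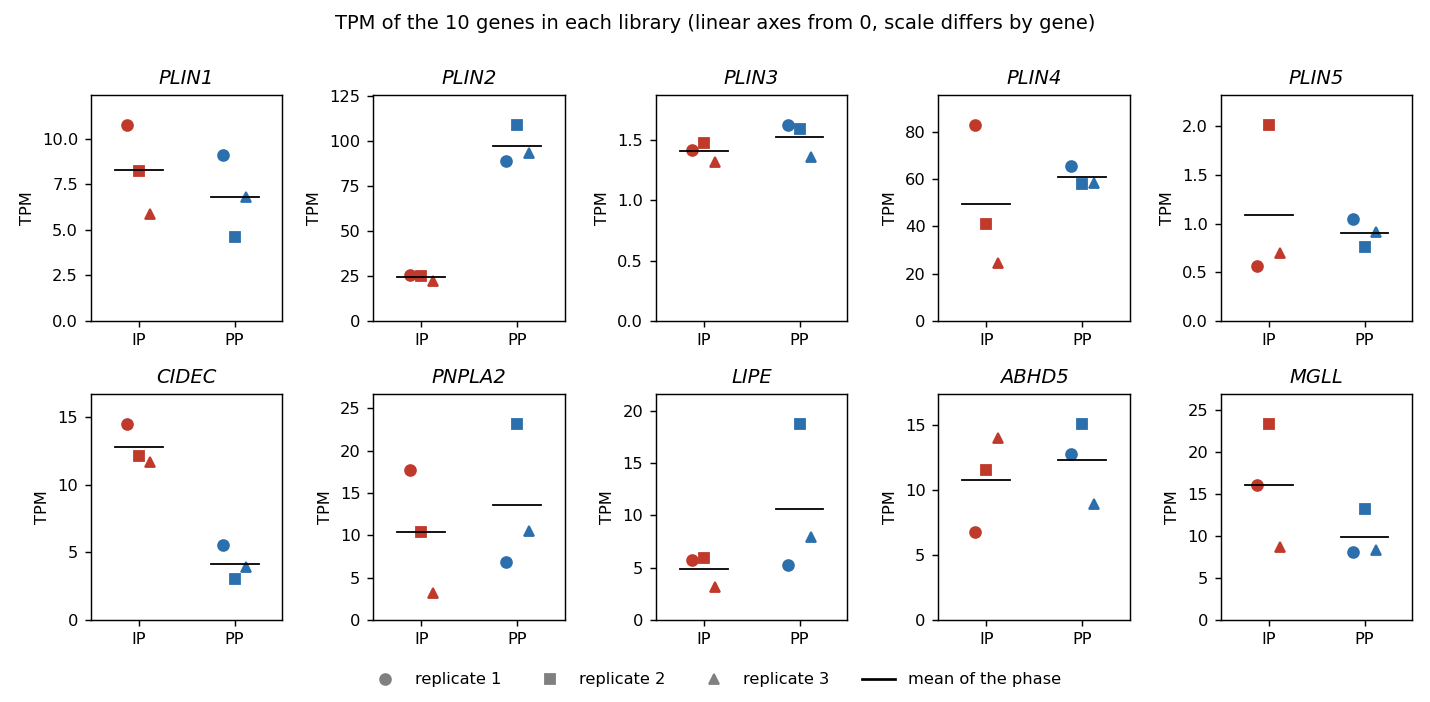
TPM of each gene in the 3 IP and 3 PP libraries, 1 panel per gene with its own linear axis from 0; symbols mark the replicate number and the line is the mean of the phase. PLIN2 lies at 22.0 to 25.5 TPM at the IP and 88.5 to 109 TPM at the PP, CIDEC at 11.7 to 14.5 and 2.99 to 5.56 TPM, and in the other panels the phases overlap.

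PLIN2 had 25.5, 24.6 and 22.0 TPM in IP pigs against 88.5, 109 and 93.2 TPM in PP pigs. The replicates of each phase lay close together, and the lowest PP value was above the highest IP value. The mean was 24.1 ± 1.85 TPM in IP pigs against 96.9 ± 10.8 TPM in PP pigs (SD, n = 3 libraries each). On the log2(TPM + 1) scale the difference, IP minus PP, was -1.96 with a standard error of 0.21 and a 95% interval from -2.44 to -1.48, from limma fitted over all 10896 loci with at least 1 TPM in at least 3 libraries. PLIN2 was 1 of 16 loci called at an adjusted p under 0.05 (0.147% of those tested), and none of the other 8 tested members was called. As PLIN2 helped to choose the group, nothing is read from that count. The call was lost without IP replicate 1, IP replicate 2 or any one of the PP libraries, with at least 1 TPM required in all 6 libraries, and with a replicate block, and the difference still lay between -2.28 and -1.81 in all 17 alternatives.

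A stretch before the curated start of PLIN2 is shown because PLIN2 has the largest difference of the members. These 30 bases span -52 to -23 from the start of the curated RefSeq transcript (chr1:203683995-203684024, plus strand), with an E-box, a GC box and a TATA box in capitals.
PLIN2: gtCACGTGgtgcgGGGCGGgtTATAAAgcc
The gene as annotated begins earlier, at 203683867, and some predicted transcripts start before or within this stretch, so it is upstream of the curated transcript only. The E-box searched was CACGTG, a form read by basic helix-loop-helix factors. The letters GGGCGG were taken as the GC box. For the TATA box the letters were TATAAA. Among 19559 protein-coding genes, the 250 bases before the start held this E-box in 6.32%, the TATA box in 9.57% and the GC box in 47.3%, counting both strands. Of the 10 genes, 3 held the E-box (PLIN2, PLIN4 and MGLL), 3 the TATA box (PLIN1, PLIN2 and PLIN3) and 5 the GC box. The E-box CACGTG is one form of the looser motif CANNTG, which 8 of the genes and 61.3% of all promoters held. No member held the cAMP element TGACGTCA, present in 1.75% of promoters.

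PPAR factors, the lipid-sensing nuclear receptors, bind a repeat of AGGTCA with 1 base between the copies, and PLIN2, CIDEC and other droplet genes are known targets in human and mouse. This repeat, with any base between the copies, was searched on both strands in 2500 bases before the curated start. No member had an exact match, as was so for all but 0.256% of the 19559 promoters. CIDEC and MGLL had a match with 1 mismatch, as did 2.69% of all promoters, and allowing 2 mismatches gave 5 of the 10 genes and 28.0% of promoters. For both, 30 bases on the strand of the gene are given with the match in capitals, for CIDEC at chr13:66149145-66149174 (minus strand, -740 to -711 from the start) and for MGLL at chr13:72479505-72479534 (plus strand, -1088 to -1059).
CIDEC: tgctcaagAGGTAACAGGTCAgctcaggac
MGLL: atcccagtTGGTCAGAGGTCAatgacctgc
The stretch of CIDEC likewise lies within the annotated gene, before the start of its curated transcript. PLIN2 had no match with up to 2 mismatches in this window. A match of letters is not a binding site, and the absence of one says nothing about the factor.

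PLIN4, which coats small nascent droplets of adipocytes and is abundant in muscle, had 83.3, 41.2 and 24.7 TPM in IP pigs against 65.8, 58.2 and 58.6 TPM in PP pigs. The IP libraries lay on both sides of the PP libraries, which were close to each other. Its mean was 49.7 ± 30.2 TPM in IP pigs against 60.9 ± 4.24 TPM in PP pigs, and the log2 difference was -0.46 with an interval from -1.40 to 0.48. Without IP replicate 1, the highest, the difference was -0.91, and without IP replicate 3, the lowest, it was -0.05.

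PLIN1 had 10.8, 8.24 and 5.88 TPM in IP pigs against 9.10, 4.58 and 6.80 TPM in PP pigs. The phases overlapped and the log2 difference of 0.26 (interval -0.50 to 1.01) was near the median of all tested loci, 0.25. It was -0.04 with median-ratio scaling, which moves that median to -0.01. PLIN1 and CIDEC are both droplet proteins of adipocytes, and their ratio is given with the other ratios.

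PLIN3, a cytosolic perilipin that moves onto new droplets, was steady at a low level. It had 1.42, 1.48 and 1.32 TPM in IP pigs against 1.63, 1.59 and 1.36 TPM in PP pigs. The highest library was 1.23 times the lowest, and its SD within a phase (0.07 on the log2 scale) was smaller than that of all but 0.5% of the tested loci. A pseudocount of 1 narrows the log2 spread of values near 1 TPM. The standard error of the difference of PLIN3 was 0.32, 0.20 and 0.07 with pseudocounts of 0.1, 1 and 5, so that rank depends in part on the pseudocount. PLIN5 was the lowest member in all libraries but IP replicate 2, where PLIN3 was lower. It had 0.559, 2.02 and 0.693 TPM in IP pigs against 1.05, 0.755 and 0.909 TPM in PP pigs. It did not pass the filter and was the only member not tested. In a fit without the filter its log2 difference was 0.07 with a standard error of 0.29. The spread of PLIN5 came mainly from IP replicate 2, the other libraries lying between 0.559 and 1.05 TPM.

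Taken as a share of all perilipin TPM in a library, which does not depend on how that library was scaled, PLIN2 made up 21.0%, 31.8% and 40.3% in IP pigs against 53.3%, 62.6% and 57.9% in PP pigs. PLIN4 made up 68.5%, 53.1% and 45.2% in IP pigs against 39.6%, 33.4% and 36.4% in PP pigs. Shares of one sum are not independent, and the lower PP shares of PLIN4 and PLIN1 go with the higher PLIN2 in that sum, as the TPM of both overlapped between the phases. The leading coat transcript was thus PLIN4 in each IP library and PLIN2 in each PP library. PLIN1 held 8.89% to 10.8% at the IP and 2.63% to 5.48% at the PP, and PLIN3 and PLIN5 together were minor in all libraries. The summed TPM of the 5 perilipins was 122, 77.5 and 54.6 in IP pigs against 166, 174 and 161 in PP pigs. Without PLIN2 the sum was 96.1, 52.9 and 32.6 in IP pigs against 77.5, 65.2 and 67.7 in PP pigs, so without PLIN2 the phases overlapped.

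**Figure D2:**
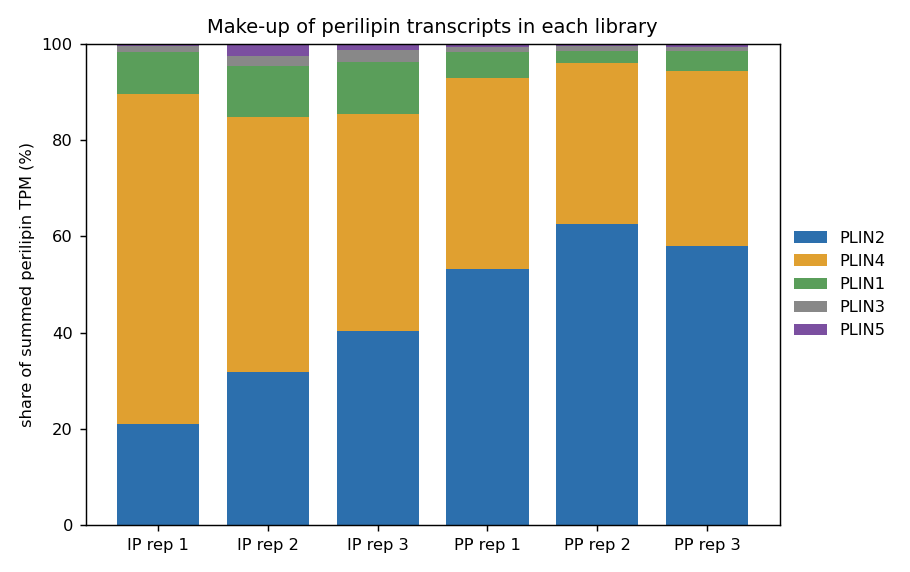
Stacked bars of the share of each perilipin gene in the summed TPM of PLIN1 to PLIN5, in percent, 1 bar per library. PLIN4 is the largest part in the IP bars (45.2% to 68.5%) and PLIN2 in the PP bars (53.3% to 62.6%).

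CIDEC, which joins droplets into the large droplet of the adipocyte, had 14.5, 12.1 and 11.7 TPM in IP pigs against 5.56, 2.99 and 3.90 TPM in PP pigs. Each IP library was above each PP library. Its mean was 12.7 ± 1.52 TPM in IP pigs against 4.15 ± 1.30 TPM in PP pigs, with a log2 difference of 1.44, a standard error of 0.27 and an interval from 0.81 to 2.07. It was not called over all loci in any of the 17 alternatives, in which the difference ran from 0.96 with a pseudocount of 5 to 1.63 with a pseudocount of 0.1 or without PP replicate 1. When 1 library was left out it was lowest without PP replicate 2, at 1.27.

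Of all tested loci, 2.02% were higher at the PP with no overlap of the phases and 10.8% were higher at the IP with none. Among the 9 tested members these were 1 of each, PLIN2 and CIDEC, both known when the group was chosen. The excess at the IP over all loci depended on scaling, as median-ratio scaling gave 7.26% for the PP and 6.60% for the IP. With median-ratio scaling or quantile normalization LIPE also lay higher at the PP with no overlap, and PLIN2 and CIDEC kept their directions. The median log2 difference of the 9 tested members was -0.20, beside 0.25 for all tested loci. Of the 9, 6 had a difference below 0, and so had 17.4% of all tested loci. Both counts depend on scaling, since with median-ratio scaling the median of all tested loci was -0.01 and PLIN1 also lay below 0. The 6 members were PLIN2, PLIN3, PLIN4, PNPLA2, LIPE and ABHD5.

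**Figure D3:**
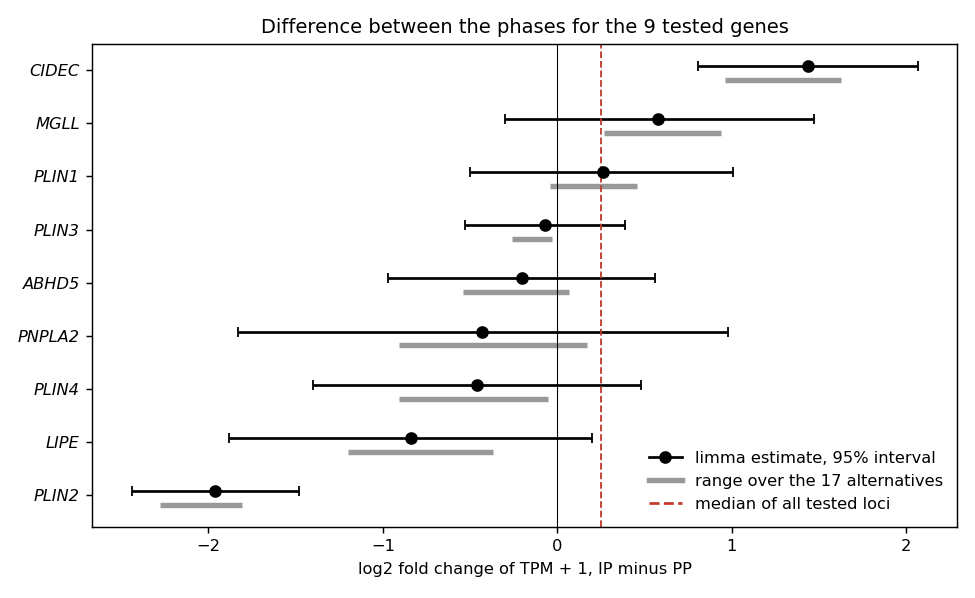
Log2 difference of TPM + 1, IP minus PP, for the 9 tested genes, with the limma estimate and its 95% interval as points and bars and the range over the 17 alternatives as grey lines. The interval leaves out 0 for PLIN2 (-2.44 to -1.48) and CIDEC (0.81 to 2.07) and spans it for the other 7; the dashed line is the median of all tested loci, 0.25.

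The lipases varied widely between libraries of one phase, and the phases overlapped for each of them. PNPLA2 had 17.7, 10.4 and 3.21 TPM in IP pigs against 6.88, 23.2 and 10.5 TPM in PP pigs. The lowest and the highest library differed 7.23 times, the widest range of the group, and the SD within a phase (0.97 on the log2 scale) exceeded that of 96.2% of tested loci. The log2 difference was -0.43 with an interval from -1.83 to 0.98, and it was 0.17 without IP replicate 3 and 0.02 without PP replicate 2. No direction can be given for PNPLA2. In the libraries with the lowest median locus, PP replicate 1 (2.98 TPM) and IP replicate 3 (3.03 TPM), PNPLA2 was lowest for its phase, but IP replicate 2 had the highest median of all (6.12 TPM) and less PNPLA2 than IP replicate 1 (4.69 TPM). The part of the library median in these values was not tested.

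LIPE had 5.73, 5.89 and 3.13 TPM in IP pigs against 5.24, 18.8 and 7.89 TPM in PP pigs. PP replicate 2 stood far above the rest, and PP replicate 1 lay among the IP values. The mean was 4.92 ± 1.55 TPM in IP pigs against 10.7 ± 7.21 TPM in PP pigs, with a log2 difference of -0.84 and an interval from -1.88 to 0.20. Without PP replicate 2 the difference was -0.37.

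ABHD5 had 6.73, 11.5 and 14.0 TPM in IP pigs against 12.8, 15.1 and 8.95 TPM in PP pigs. The values of the phases were mixed, with a log2 difference of -0.20 (interval -0.97 to 0.56). In IP replicate 3, which had the lowest PNPLA2 value, ABHD5 was at the highest value of its phase, and the ratio of ABHD5 to PNPLA2 was 4.37 there against 0.379 in IP replicate 1. At the PP the ratio was 1.85, 0.653 and 0.849. The level of the activator relative to its lipase thus spanned a wide range between libraries of the IP alone.

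MGLL, which cleaves the last fatty acid and also degrades the endocannabinoid 2-arachidonoylglycerol, had 16.1, 23.4 and 8.64 TPM in IP pigs against 8.04, 13.2 and 8.38 TPM in PP pigs. Its mean was 16.1 ± 7.40 TPM in IP pigs against 9.87 ± 2.88 TPM in PP pigs, and the phases overlapped through IP replicate 3. The log2 difference was 0.58 with an interval from -0.30 to 1.47, and it was 0.94 without IP replicate 3 and 0.27 without IP replicate 2. Median-ratio scaling gave 0.28 and quantile normalization 0.27.

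Ratios of members within a library were compared next, since they do not change when a library is rescaled. Of the 45 pairs of members, 15 had ratios that did not overlap between the phases, and 14.6% of all pairs of tested loci above 0 in all libraries did so. Of the 15 pairs, 14 contained PLIN2 or CIDEC. The ratio of PLIN2 to CIDEC was 1.76, 2.04 and 1.88 in IP pigs against 15.9, 36.5 and 23.9 in PP pigs, so the least of the PP ratios was well above the largest of the IP ratios. The ratio of CIDEC to PLIN1 was 1.34, 1.46 and 1.99 in IP pigs against 0.611, 0.652 and 0.573 in PP pigs. Among the 28 pairs without PLIN2 and CIDEC, 1 did not overlap: MGLL was 2.81, 3.98 and 2.76 times LIPE at the IP and 1.53, 0.700 and 1.06 times LIPE at the PP. The 28 pairs share genes and are not independent, so this count is given beside the 14.6% of all pairs without a test. The ratio of LIPE to PNPLA2 was nearly the same in the PP libraries (0.762, 0.812 and 0.749) and spread at the IP (0.323, 0.565 and 0.976).

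**Figure D4:**
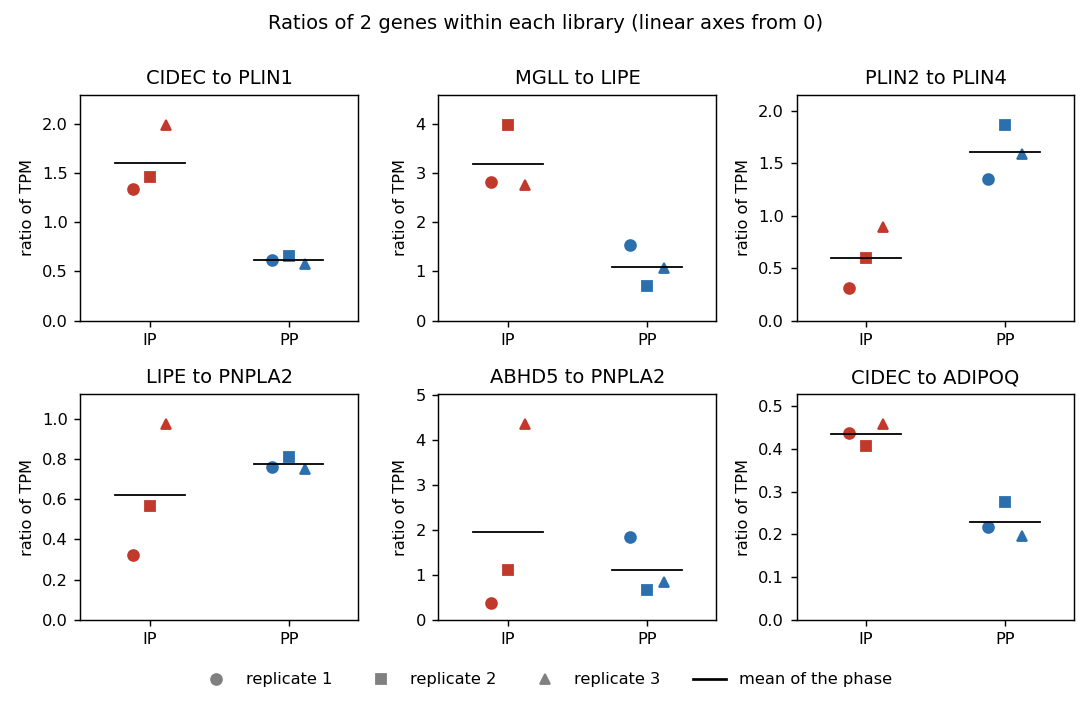
Ratios of the TPM of 2 genes within each library, 6 panels with linear axes from 0; symbols mark the replicate number and lines the mean of the phase. The phases are apart for CIDEC to PLIN1, MGLL to LIPE, PLIN2 to PLIN4 and CIDEC to ADIPOQ, and mixed for LIPE to PNPLA2 and ABHD5 to PNPLA2.

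Markers of adipocytes and macrophages, both of which can hold PLIN2-coated droplets, were set beside these values. Of 12 adipocyte markers 7 were analysed, none was at 0 in any library, and their summed TPM was 282 to 401 at the IP and 277 to 629 at the PP, which overlap. FABP4 was the largest part of that sum, at 177 to 307 TPM at the IP and 201 to 483 TPM at the PP. Of the 5 tested, 4 had a log2 difference below 0, beside 17.4% of all tested loci. The adipogenic factors CEBPA and PPARG, both low, did not overlap and went in opposite directions, CEBPA with 0.434 to 1.09 TPM at the IP and 1.11 to 1.64 TPM at the PP, and PPARG, which was not tested, with 0.954 to 1.79 and 0.521 to 0.937 TPM. CEBPA was the only 1 of the 5 tested markers without overlap, beside 2.02% of all tested loci higher at the PP and 10.8% higher at the IP with none. Adiponectin (ADIPOQ), the defining adipocyte hormone, had 33.2, 29.7 and 25.5 TPM in IP pigs against 25.6, 10.8 and 20.0 TPM in PP pigs. CIDEC per ADIPOQ was 0.436, 0.407 and 0.459 in IP pigs against 0.217, 0.276 and 0.195 in PP pigs, higher at the IP with no overlap. ADIPOQ is 1 marker of the list, and FABP4, CFD and TRARG1 had higher means at the PP, so ratios to ADIPOQ describe that gene and not the adipocyte list. PLIN2 per ADIPOQ was 0.769 to 0.863 at the IP and 3.45 to 10.1 at the PP. PLIN1 and LIPE per ADIPOQ were likewise higher at the PP with no overlap. For PLIN1 the ratio was 0.231 to 0.326 at the IP and 0.34 to 0.424 at the PP, and for LIPE 0.123 to 0.199 and 0.205 to 1.74. Of all pairs of tested loci above 0 in all libraries, 14.6% had ratios with no overlap.

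All 11 macrophage markers were analysed, with none at 0, and summed to 40.6 to 85.1 TPM at the IP and 50.8 to 106 TPM at the PP, which overlap. The macrophage gene CD68 had a mean of 1.49 ± 0.783 TPM in IP pigs against 1.21 ± 0.667 TPM in PP pigs. SPP1 and TYROBP were higher at the PP with no overlap, at 1.34 to 20.6 and 12.5 to 25.7 TPM there and 0.609 to 0.887 and 4.48 to 11.8 TPM at the IP. They were 2 of the 11 markers, beside 2.02% of all tested loci. SPP1 had under 1 TPM in each IP library and passed the filter only through the PP libraries. Its lack of overlap was thus fixed by the filter, and nothing is read from the count of 2. Of the 11, 7 had a log2 difference below 0, beside 17.4% of all tested loci, and such counts depend on scaling. Within the PP, PLIN2 was highest in replicate 2, where the summed adipocyte and macrophage markers were lowest of the phase, while the macrophage genes CD68 (1.95 TPM) and CD163 (6.30 TPM) were highest of the phase there. The part of these cells in the level of PLIN2 was not tested.

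**Figure D5:**
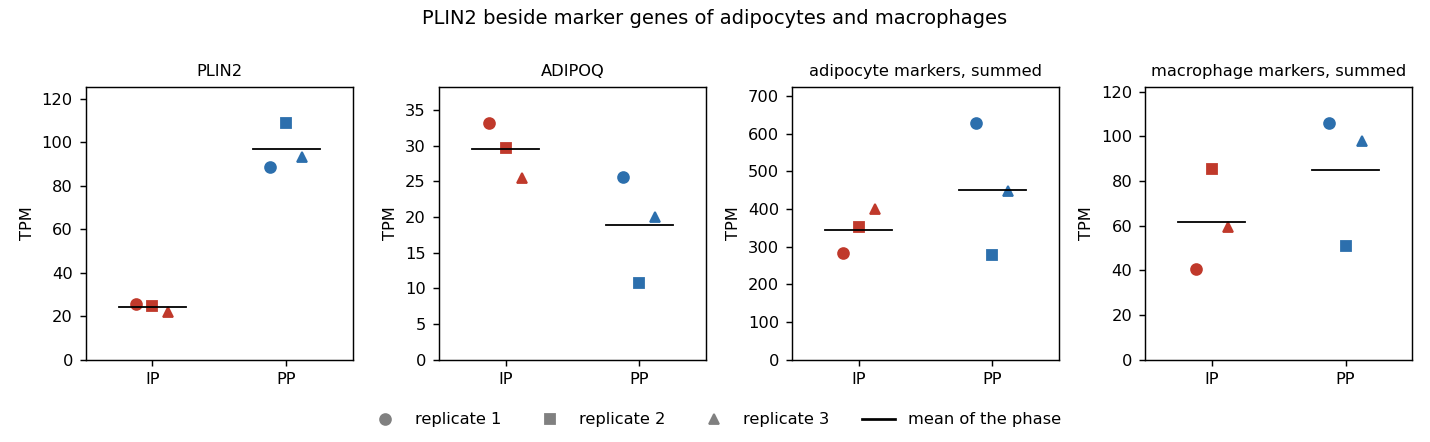
TPM of PLIN2, of ADIPOQ, and the summed TPM of 7 adipocyte and 11 macrophage markers in each library, with linear axes from 0; lines are means of the phase. PLIN2 separates the phases, while the summed markers overlap (282 to 401 and 277 to 629 TPM for adipocytes, 40.6 to 85.1 and 50.8 to 106 TPM for macrophages). FABP4 is the largest part of the adipocyte sum, and some single genes of both lists do not overlap.

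Other genes that act on droplets were set beside the group. Of 20 tested genes of droplet formation and other droplet proteins, 0 passed an adjusted p of 0.05 from limma and 0 had an unadjusted p under 0.05, with a median log2 difference of 0.22. Over all tested loci 0.147% passed and 755 of 10896 had an unadjusted p under 0.05. With shares so low, a count of 0 in a short list is not read as a lack of difference. The most abundant were HSPA8, a chaperone that delivers perilipins for degradation (408 to 1034 TPM), the caveolar protein CAV1 (103 to 159 TPM) and FITM1, a muscle protein that promotes droplet budding (44.7 to 74.3 TPM). FITM1 had 44.7, 54.6 and 64.6 TPM in IP pigs against 74.3, 51.7 and 64.3 TPM in PP pigs, which overlap.

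Of 10 tested lipid hydrolases and lipase modulators outside the group, 0 passed and 0 had an unadjusted p under 0.05 (limma, median log2 difference 0.20). The same low shares over all loci apply to these counts. FABP4 and FABP3, the fatty acid carriers of adipocytes and of muscle, and HILPDA, which inhibits PNPLA2, were the most abundant. FABP3 had 131, 265 and 188 TPM in IP pigs against 679, 145 and 502 TPM in PP pigs, with PP replicate 2 among the IP values. FABP4 had 177, 264 and 307 TPM in IP pigs against 483, 201 and 335 TPM in PP pigs. HILPDA had 47.9, 65.0 and 23.2 TPM in IP pigs against 27.9, 44.6 and 34.6 TPM in PP pigs. Another inhibitor of PNPLA2, G0S2, was low and overlapped, at 3.28 to 5.37 TPM at the IP and 2.89 to 4.44 TPM at the PP.

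In the cAMP arm, by which adrenaline activates LIPE and PLIN1 through protein kinase A, 0 of 16 tested genes passed and 2 had an unadjusted p under 0.05 (limma). Over all tested loci 755 of 10896 had such a p. Of the 16, 14 had a difference above 0 and 2 below, beside 17.4% of all loci below 0. The median log2 difference was 0.61 beside 0.25 for all loci, and such values depend on scaling. The 2 genes with an unadjusted p under 0.05 from limma were PDE4B, a phosphodiesterase that breaks down cAMP, and PRKACB, a catalytic subunit of the kinase. PDE4B had 42.1, 43.9 and 23.8 TPM in IP pigs against 7.47, 13.2 and 8.73 TPM in PP pigs, each IP library being above each PP library. PRKACB had 8.85, 10.6 and 8.51 TPM in IP pigs against 6.51, 5.38 and 5.47 TPM in PP pigs. In this list 3 of the 16 were higher at the IP with no overlap, beside 10.8% of all tested loci. They were PDE4B, PRKACB and the phosphodiesterase PDE3A. PDE3A had 1.01 to 2.54 TPM at the IP and 0.960 to 0.980 TPM at the PP, and passed the filter only through the IP libraries. These 3 were named after their values were seen. The most abundant genes of the list were the regulatory subunits PRKAR1A (52.8 to 68.2 TPM) and PRKAR2A (26.3 to 60.7 TPM) and the phosphodiesterase PDE4D (13.4 to 53.4 TPM), and their phases overlapped. The beta-adrenergic receptors were not analysed here.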

How the data were processed

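RNA of longissimus dorsi was sequenced in 3 IP and 3 PP libraries. The authors selected poly(A) RNA, used TopHat for alignment and Cufflinks for assembly, and deposited TPM per locus, 1 column per library. The submitters' processing notes name Sscrofa11.1, and the methods name an earlier build. Of 12671 loci, 9764 had a symbol through their Ensembl identifier. TPM keep no read numbers, so no counting interval was computed. P-values and intervals rest on the spread between these libraries, in which animal and library preparation cannot be told apart.

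From the deposited TPM, log2(TPM + 1) of the 10896 loci with at least 1 TPM in at least 3 libraries was fitted with limma 3.58.1 in R 4.3.3 (trended eBayes, 2-sided, no block, Benjamini-Hochberg over all loci, threshold 0.05). The limma fit was tested on simulated data. The tools of the paper need reads and were not used. Of the 10 members, 9 passed the filter. Members, lists and tests were chosen with earlier results of these data known, and the 45 ratios after values were seen. Genes named are the members, the 3 most abundant of each list and those called, and the 3 nearest in pattern to PLIN2 and CIDEC. Further cell type markers were set for endothelium, fibroblasts and blood. G0S2, CD68, CD163, CEBPA, PPARG, TRARG1, SPP1, TYROBP, COL1A1, PDE3A, PDE4B and PRKACB were named after their values were seen. CKM was named outside this rule, as an example of the muscle list. Sequences and coordinates are from RefSeq for Sscrofa11.1, matched by symbol (Python 3.11.15, Biopython 1.88). Promoters start at the curated transcript, or the predicted one where there is none (PLIN4). Alternatives were other pseudocounts (0.1 and 5), filters, scalings, loci left out, variance models, the replicate block, and each library left out.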

Additional observations from a re-analysis of the deposited data

How the results depend on the processing

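Over the 17 alternatives PLIN2, PLIN3, PLIN4, CIDEC, LIPE and MGLL kept the sign of their difference, and PLIN1, PNPLA2 and ABHD5 did not in 2, 2 and 1 of them. The 16 calls over all loci became 4 with a pseudocount of 5, 0 when at least 1 TPM was required in all 6 libraries (612 with an unadjusted p under 0.05) and 3 with the replicate block, and ran from 2 to 22 when 1 library was left out. The count of members called, 1, became 0 with that filter and with the block, and ran from 0 to 1 when 1 library was left out. The animals were slaughtered either at the IP or at the PP, so same-numbered libraries come from different animals. The deviations of same-numbered libraries correlated at -0.53, 0.20 and 0.22, and IP replicates 1 and 3 correlated best with PP replicates 2 and 1. With 3 libraries a phase, these correlations cannot show whether the numbers mark a shared batch. The cause of the changes in the counts of calls was not tested. The median-ratio and quantile alternatives, and leaving out the 3 most abundant loci, moved the difference of PLIN2 to -2.28, -2.27 and -2.16. With 3 libraries a phase the intervals are wide, widest for PNPLA2 (-1.83 to 0.98), and TPM give no read numbers for members near 1 TPM.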

Other observations

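Genes whose profile over the 6 libraries was nearest to that of PLIN2 were sought among 4553 genes with a symbol and a mean of at least 5 TPM, by the root mean square difference of centred log2(TPM + 1) values. They were MED8, a subunit of the Mediator complex (0.41), MYOC, the secreted protein myocilin (0.42), and SLC25A34, a mitochondrial carrier (0.48). MYOC had 18.2, 17.3 and 17.5 TPM in IP pigs against 54.7, 38.0 and 42.2 TPM at the PP. MED8 had 30.7 ± 0.813 TPM (SD, n = 3) in IP pigs against 58.0, 93.0 and 64.9 TPM at the PP, highest in PP replicate 2 as PLIN2 was.

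Nearest to CIDEC were CAVIN4, a coat protein of muscle caveolae (0.09), TKT, the transketolase of the pentose phosphate pathway (0.18), and DHRS7C, a dehydrogenase of the sarcoplasmic reticulum (0.21). CAVIN4 had 47.1, 43.7 and 38.9 TPM in IP pigs against 20.7, 13.7 and 15.9 TPM at the PP. Profiles over 6 libraries that differ mainly by phase are alike for many genes, so likeness here describes these libraries.

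Markers of other cells overlapped between the phases in their sums. Endothelial markers summed to 37.5 to 75.9 TPM in IP pigs against 34.5 to 41.7 TPM at the PP, fibroblast markers to 206 to 364 and 178 to 284 TPM, and markers of red blood cells and neutrophils to 201 to 330 and 104 to 280 TPM. The fibroblast genes COL1A1 and COL3A1 were higher at the IP with no overlap, at 10.3 to 31.5 and 63.4 to 116 TPM there and 5.46 to 6.60 and 16.5 to 49.3 TPM at the PP. They were 2 of the 5 fibroblast markers, beside 10.8% of all tested loci, a share that depends on scaling. DCN, the most abundant of the 5, had 112 to 173 TPM at the IP and 146 to 211 TPM at the PP (log2 difference -0.28). The phases of DCN and of the remaining markers of that list overlapped.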
